A study of Drosophila melanogaster with 12 samples.

Results

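The Hox genes of Drosophila melanogaster are 8 homeobox genes, lab, pb, Dfd, Scr, Antp, Ubx, abd-A and Abd-B, chosen here by name, and all 8 were found among the 17492 genes of the deposited tables. RNA came from carcasses of stationary larvae of the third instar, the body wall left once the internal tissues are taken out. Trans-heterozygotes for Nxt1, whose homologous chromosomes carry different mutant alleles of the gene, and which are listed under the strain yw, were compared with wildtype (WT) larvae of the strain w1118. The labels do not name the Nxt1 alleles, and since strain differed with genotype in all comparisons, the effects of both cannot be told apart. Each genotype had 3 M libraries, which carried the mRNA and pre-mRNA values, and 3 R libraries, which carried counts of circular RNA. The labels do not spell out the letters, taken here to stand for a mock digest and for RNase R, an enzyme that degrades linear RNA. Nothing states that replicates were separate pools of larvae, so p-values measure only the spread between these libraries.

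Hox proteins are transcription factors that bind DNA through a homeodomain and give each segment of the body its identity. In the fly their genes lie in a pair of clusters on the same chromosome arm. The Antennapedia complex holds lab, pb, Dfd, Scr and Antp, which act in the head and thorax. The bithorax complex holds Ubx, abd-A and Abd-B, which act from the hind thorax to the tail. Expression follows the order of the genes along the chromosome, so that a larval body wall, made mostly of thoracic and abdominal segments, is a mixture of cells with different Hox genes. In such bulk RNA, fewer cells of a type and less RNA per cell cannot be told apart.

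As recovered from the deposited FPKM (fragments scaled for transcript length and library depth), the M libraries held 19830526 to 32868851 mRNA reads in Nxt1 larvae and 30193498 to 32305641 in WT larvae. Reads assigned to pre-mRNA came to 664555 to 1307520 in Nxt1 larvae and 1237133 to 1455766 in WT larvae. Nxt1 mRNA itself had 93, 165 and 147 reads in the Nxt1 libraries, against 346, 262 and 303 in the WT libraries (log2 fold -0.58, SE 0.11, limma adjusted p = 0.0164). Muscle, the tissue that should dominate a carcass, was well represented. The 12 muscle markers summed to between 79819 and 103578 scaled RPM (reads over the library factor that lies behind the FPKM) in Nxt1 larvae and between 30253 and 66979 in WT larvae, and none was at 0. All folds below are Nxt1 over WT, and a gene is called changed at a limma adjusted p under 0.05 on log2(FPKM + 1).

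The lengths behind the deposited FPKM belong to other genes, so a level is given per length of the gene itself where that length could be recovered, which was so for 6 Hox genes. Fold changes within a gene are not touched by this apart from the weight of the 1 that was added to each FPKM. The abdominal gene abd-A was the most abundant. It had 52.1 ± 3.14 FPKM per own exonic length in Nxt1 larvae and 46.3 ± 14.7 in WT larvae (SD, n = 3 each). Ubx, which acts in the hind thorax and the front of the abdomen, followed with 16.8 ± 3.36 and 16.9 ± 2.32 FPKM per own length in Nxt1 and WT larvae. The tail gene Abd-B had 6.38 ± 0.407 FPKM per own length in Nxt1 larvae and 6.56 ± 1.09 in WT larvae.

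The 3 genes of the Antennapedia complex with a known length lay far lower. Antp and pb, of the same complex, had no recovered length and are not placed in this order. In reads per library Antp had 483 to 1824 and pb 6 to 106, beside 994 to 2193 for Abd-B. Scr, which acts where head meets thorax, was at 0.821 ± 0.0744 FPKM per own length in Nxt1 larvae and 1.72 ± 0.390 in WT larvae (SD, n = 3 each). Dfd, a gene of the jaw segments, was at 0.684 ± 0.192 in Nxt1 larvae and 1.03 ± 0.0432 in WT larvae on the same scale. The level of lab, a gene of the foremost head and the midgut, was 0.291 ± 0.153 in Nxt1 larvae and 0.258 ± 0.120 in WT larvae. In WT larvae no neighbours in this order overlapped between libraries, and in Nxt1 larvae the ranges of Scr (0.748 to 0.897) and Dfd (0.554 to 0.904) did. Among 13395 genes with a known length, 91.9% lay below abd-A in Nxt1 larvae and 91.5% in WT larvae, whereas 32.3% and 32.0% lay below lab in Nxt1 and WT larvae.

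**Figure D1:**
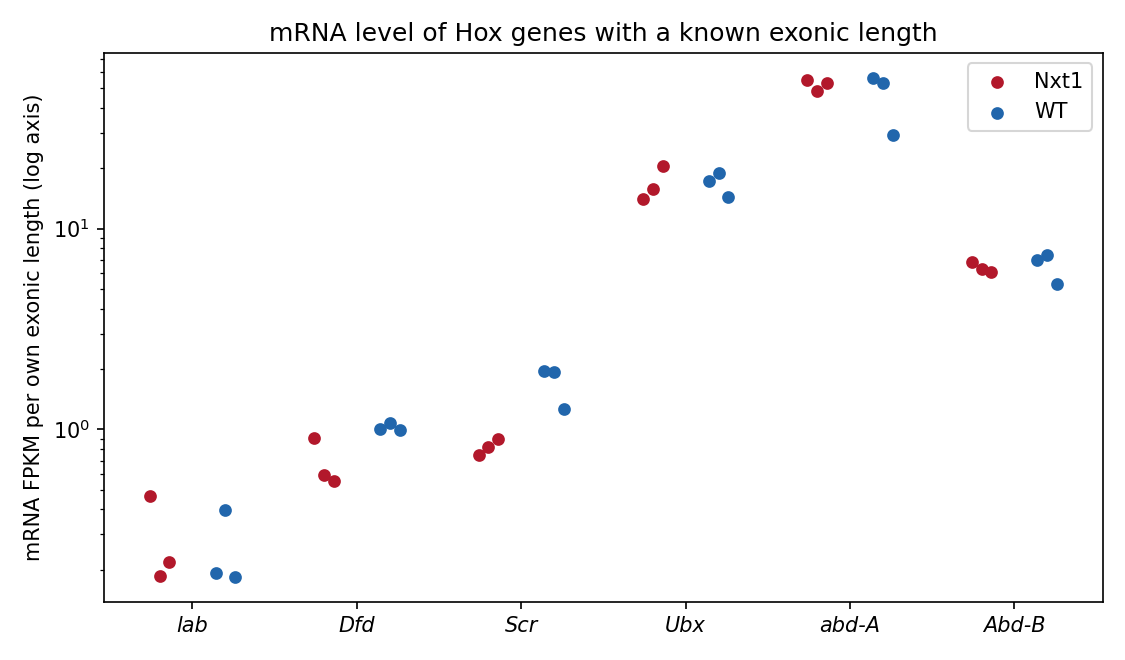
mRNA level of the 6 Hox genes with a recovered exonic length, as FPKM per that length on a log axis, with 1 point per library (Nxt1 red, WT blue). The 3 genes of the bithorax complex on the right lie above 5 FPKM in every library, and lab, Dfd and Scr lie below 2.

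In reads, which favour long transcripts, the bithorax complex gave 92.2%, 91.8% and 91.6% of all Hox mRNA reads in Nxt1 libraries, against 87.1%, 88.3% and 82.2% in WT libraries. The share was higher in every Nxt1 library than in any WT library. It is a description, with no test. Reads of the Antennapedia complex, those of Scr and Antp among them, make up the rest of the total, so the share is not independent of their folds. In WT replicate 3, the lowest, abd-A gave 48.97% of Hox mRNA reads, against 60.45% and 58.56% in WT replicates 1 and 2.

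Between the genotypes, Scr and Antp mRNA fell in Nxt1 larvae by limma. By edgeR on the recovered reads Scr (log2 fold -1.11, adjusted p = 0.0144), Antp (-0.70, adjusted p = 0.0065) and pb fell. These were 3 of 8 genes, beside 12% of 10484 genes that edgeR called lower. The 3 genes of the bithorax complex did not pass by either tool. Of the 8 genes 6 had the mean of at least 1 FPKM needed for the limma test, and 2 of these 6 were lower and 0 higher. Over all genes tested 9.1% were called lower and 21.6% in either direction. The median log2 fold of the 6 was -0.19, beside 0.01 over all 8923 genes.

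Scr mRNA (FBgn0003339) had 3.79, 4.14 and 4.54 FPKM as deposited in the Nxt1 libraries, against 9.92, 9.78 and 6.43 FPKM in the WT libraries. Every Nxt1 library lay below every WT library, and WT replicate 3 was the lowest WT library. The reads behind these values were 55, 98 and 110 in Nxt1 larvae and 302, 290 and 185 in WT larvae. The mean was 47.7% of WT, with a log2 fold of -0.89 on FPKM + 1 (SE 0.17, limma adjusted p = 0.0170). With lengths put back in order that log2 fold was -0.57 (SE 0.14, limma adjusted p = 0.0361). An exact permutation test, 2-sided, returned p = 0.1, below which 3 against 3 libraries cannot go. Leaving out WT replicate 1 or any of Nxt1 replicates 1, 2 and 3 put the adjusted p of Scr between 0.0517 and 0.0631, and with replicate number as a block it was 0.0723.

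Antp (FBgn0260642), the selector of the middle thorax, had 17.4, 17.5 and 20.1 FPKM in Nxt1 larvae, against 31.3, 26.5 and 29.0 FPKM in WT larvae. Again all Nxt1 libraries were below all WT libraries, by a gap wider than the spread within either genotype. Its reads came to 483, 791 and 931 in Nxt1 larvae and 1824, 1504 and 1599 in WT larvae. The mean was 63.3% of WT (log2 fold -0.63, SE 0.09, limma adjusted p = 0.00883, exact permutation p = 0.1). The call held without any 1 library and with the replicate block (adjusted p = 0.0484).

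For pb (FBgn0051481), which shapes the adult mouthparts, reads were few. There were 6, 14 and 22 mRNA reads in Nxt1 libraries, against 106, 91 and 83 in WT libraries. No Nxt1 library came near a WT library, and the mean FPKM in Nxt1 larvae was 20.3% of that in WT larvae. The mean of 0.61 FPKM kept pb out of the limma test, a filter that here rests on the length of another gene. Without the filter pb was called (log2 fold -0.74 on FPKM + 1, limma adjusted p = 0.00627). That fit called 1790 of 15293 genes in either direction. By edgeR's quasi-likelihood test on the reads, which no length enters, it fell by 2.30 on the log2 scale (Benjamini-Hochberg adjusted p = 0.00482), where 12% of 10484 genes were called lower.

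Dfd mRNA (FBgn0000439) had 1.47, 0.966 and 0.904 FPKM in Nxt1 larvae, against 1.65, 1.75 and 1.62 FPKM in WT larvae. The groups did not overlap, yet the difference missed the threshold (log2 fold -0.35, SE 0.13, limma adjusted p = 0.0997; edgeR log2 fold -0.65, adjusted p = 0.0796). Without Nxt1 replicate 1, its highest Nxt1 library, the limma adjusted p was 0.0445. Without any other 1 library it lay between 0.127 and 0.256, and with the replicate block it was 0.178. For lab (FBgn0002522) there were 23, 15 and 18 mRNA reads in Nxt1 larvae and 20, 40 and 18 in WT larvae, so that the groups overlapped and each rests on few reads. Its log2 fold by edgeR was 0.08 (adjusted p = 0.925).

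Among the Hox genes tested, Dfd, Scr and Antp were lower in every Nxt1 library than in any WT library, or 3 of 6, beside 19.6% of all genes tested. The filtered gene pb showed the same order. Whether the Antennapedia complex and the bithorax complex differ in response was not tested.

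**Figure D2:**
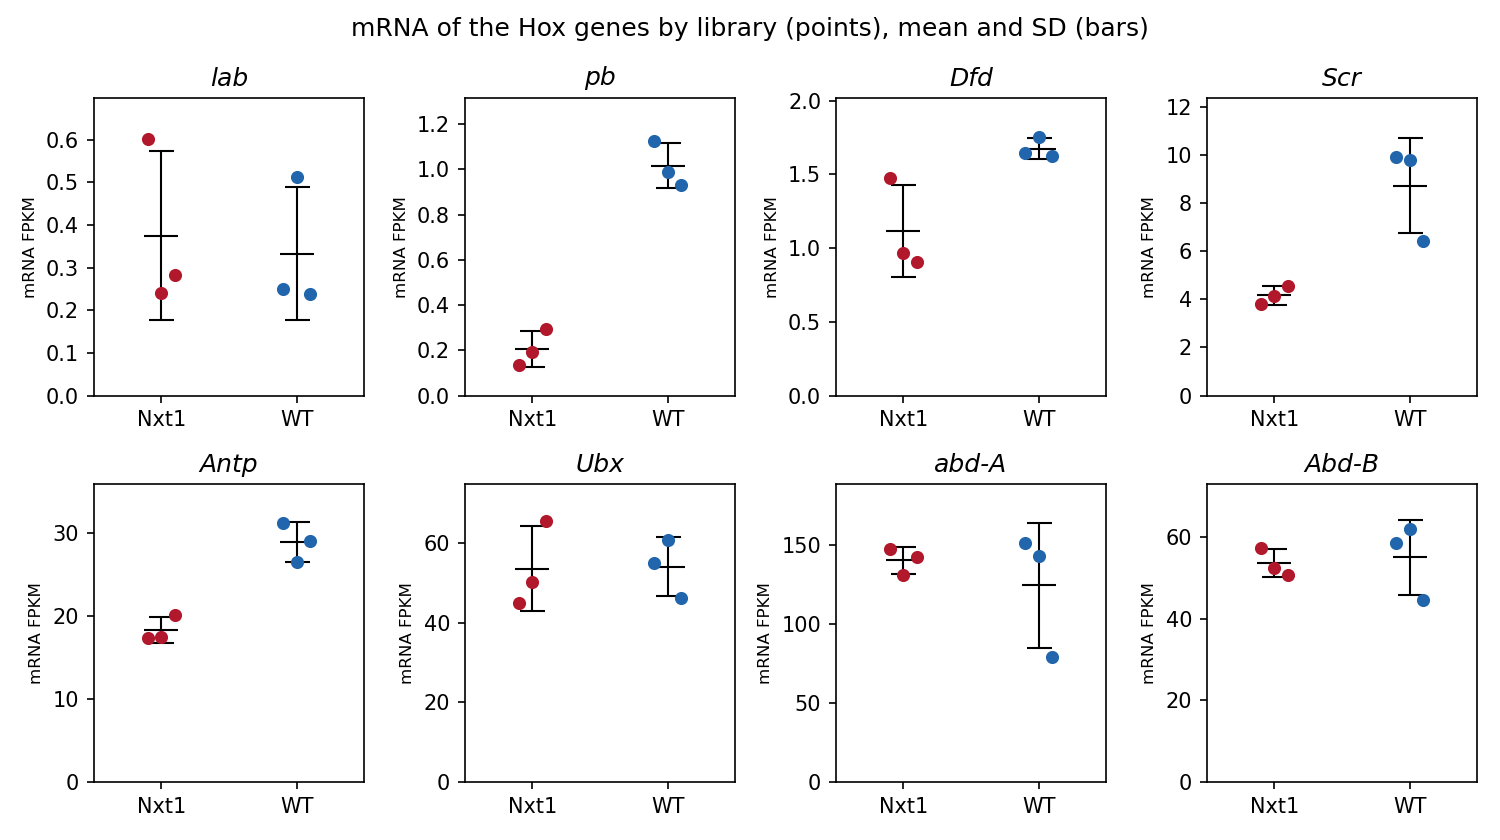
mRNA FPKM as deposited for the 8 Hox genes, with 1 point per library, the mean as a horizontal mark and the SD as a bar (n = 3 each), Nxt1 left of WT. For pb, Dfd, Scr and Antp all Nxt1 points lie below all WT points, and for lab, Ubx, abd-A and Abd-B the groups overlap. Axes differ between genes, and levels are not comparable between panels.

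Ubx mRNA (FBgn0003944) had 45.0, 50.2 and 65.7 FPKM in Nxt1 larvae, against 55.1, 60.9 and 46.1 FPKM in WT larvae. The libraries of both genotypes were interleaved (log2 fold -0.02, SE 0.17, limma adjusted p = 0.942). For abd-A (FBgn0000014), 147, 131 and 142 FPKM in Nxt1 larvae stood against 151, 143 and 79.1 FPKM in WT larvae. WT replicate 3 alone was low, and the log2 fold was 0.22 with it (SE 0.25, limma adjusted p = 0.551) and -0.07 without it (adjusted p = 0.528). Abd-B mRNA (FBgn0000015) had 57.3, 52.5 and 50.8 FPKM in Nxt1 larvae, against 58.5, 61.9 and 44.6 FPKM in WT larvae, with WT replicate 3 once more the lowest library. Its log2 fold was -0.03 (SE 0.14, limma adjusted p = 0.901).

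When every library was instead given the same total, the median log2 fold over all genes tested was -0.32, and 54.9% of 8922 genes were called, 49% lower and 5.92% higher. On that scale Dfd was called (-0.56, limma adjusted p = 0.0116), and abd-A was at -0.15 and Abd-B at -0.39 (adjusted p = 0.0446), with Ubx at -0.39 (adjusted p = 0.0934). The calls of Dfd and Abd-B stand beside that 49%. Scr and Antp stood at -1.21 and -0.99. Directions given here are those under the deposited scaling.

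Pre-mRNA asks whether the primary transcripts differed likewise. Values were finite for 7 Hox genes, while lab was infinite in all libraries because the length used for it was 0. The limma test called 0 of these 7 at adjusted p under 0.05, beside 1.48% of 3576 genes (0.643% lower and 0.839% higher), although 3 of them (pb, Scr and Antp) had an unadjusted p under 0.05, as did 16.8% of all genes tested. On the recovered reads edgeR called pb, Scr and Antp lower, and DESeq2 called these 3 as well. DESeq2 called 238 genes in either direction, from the 4543 with recovered pre-mRNA reads. By edgeR 8.22% of 2529 genes were called, and 3.76% were called lower.

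Antp pre-mRNA had 309, 513 and 628 reads in Nxt1 larvae, against 1273, 1009 and 1025 reads in WT larvae. In FPKM as deposited the mean was 61.2% of WT, with no overlap between the groups (log2 fold -0.71, SE 0.14, limma adjusted p = 0.0736; edgeR log2 fold -0.74, adjusted p = 0.0223). Scr pre-mRNA had 67, 101 and 139 reads in Nxt1 larvae and 295, 309 and 171 in WT larvae, or 56.3% of the WT mean in FPKM. It missed the limma threshold (log2 fold -0.81, SE 0.22, adjusted p = 0.142) and passed by edgeR (log2 fold -0.86, adjusted p = 0.0377). For pb there were 15, 8 and 12 pre-mRNA reads in Nxt1 larvae, against 60, 57 and 50 in WT larvae. The WT libraries were nearly equal while Nxt1 replicate 1 was well above the other Nxt1 libraries in FPKM, and the limma adjusted p was 0.141 (log2 fold -1.65, SE 0.45) beside 0.0288 by edgeR.

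Dfd pre-mRNA rested on 9, 11 and 15 reads in Nxt1 larvae and 38, 26 and 23 in WT larvae, and its difference was not called by limma (log2 fold -0.69, adjusted p = 0.309) or edgeR (log2 fold -0.84, adjusted p = 0.141). Ubx pre-mRNA, with 1404, 2459 and 3534 reads in Nxt1 larvae and 3174, 3678 and 2404 in WT larvae, had a log2 fold of 0.13 (SE 0.18, limma adjusted p = 0.747). For abd-A the FPKM of the 3 Nxt1 libraries lay above those of the 3 WT libraries, with 836, 1499 and 1613 reads against 1717, 1698 and 890. The difference was not called (log2 fold 0.41, SE 0.21, limma adjusted p = 0.376) and was 0.18 without WT replicate 3. Abd-B had 101, 251 and 142 pre-mRNA reads in Nxt1 larvae and 297, 261 and 184 in WT larvae, a log2 fold of -0.13 (SE 0.24, limma adjusted p = 0.83).

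Per own intronic length the pre-mRNA level of abd-A was again highest, at 56.7 ± 2.22 FPKM in Nxt1 larvae and 43.6 ± 11.2 in WT larvae (SD, n = 3 each). Ubx followed with 24.9 ± 4.73 in Nxt1 larvae and 22.6 ± 3.10 in WT larvae. On this scale Scr stood above Abd-B, whereas its mRNA stood below. Scr was at 3.42 ± 0.538 in Nxt1 larvae and 6.08 ± 1.33 in WT larvae, and Abd-B at 3.36 ± 0.947 in Nxt1 larvae and 3.61 ± 0.548 in WT larvae. The libraries of this pair overlapped in Nxt1 larvae and not in WT larvae. Dfd was lowest, at 1.16 ± 0.258 in Nxt1 larvae and 1.99 ± 0.419 in WT larvae.

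Thus 4 of the 7 genes with pre-mRNA values, pb, Dfd, Scr and Antp, lay lower in all Nxt1 libraries than in any WT library, and 1, abd-A, lay higher. Over all pre-mRNA genes tested these shares were 11.5% and 13.1%, or 24.6% with no overlap.

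**Figure D3:**
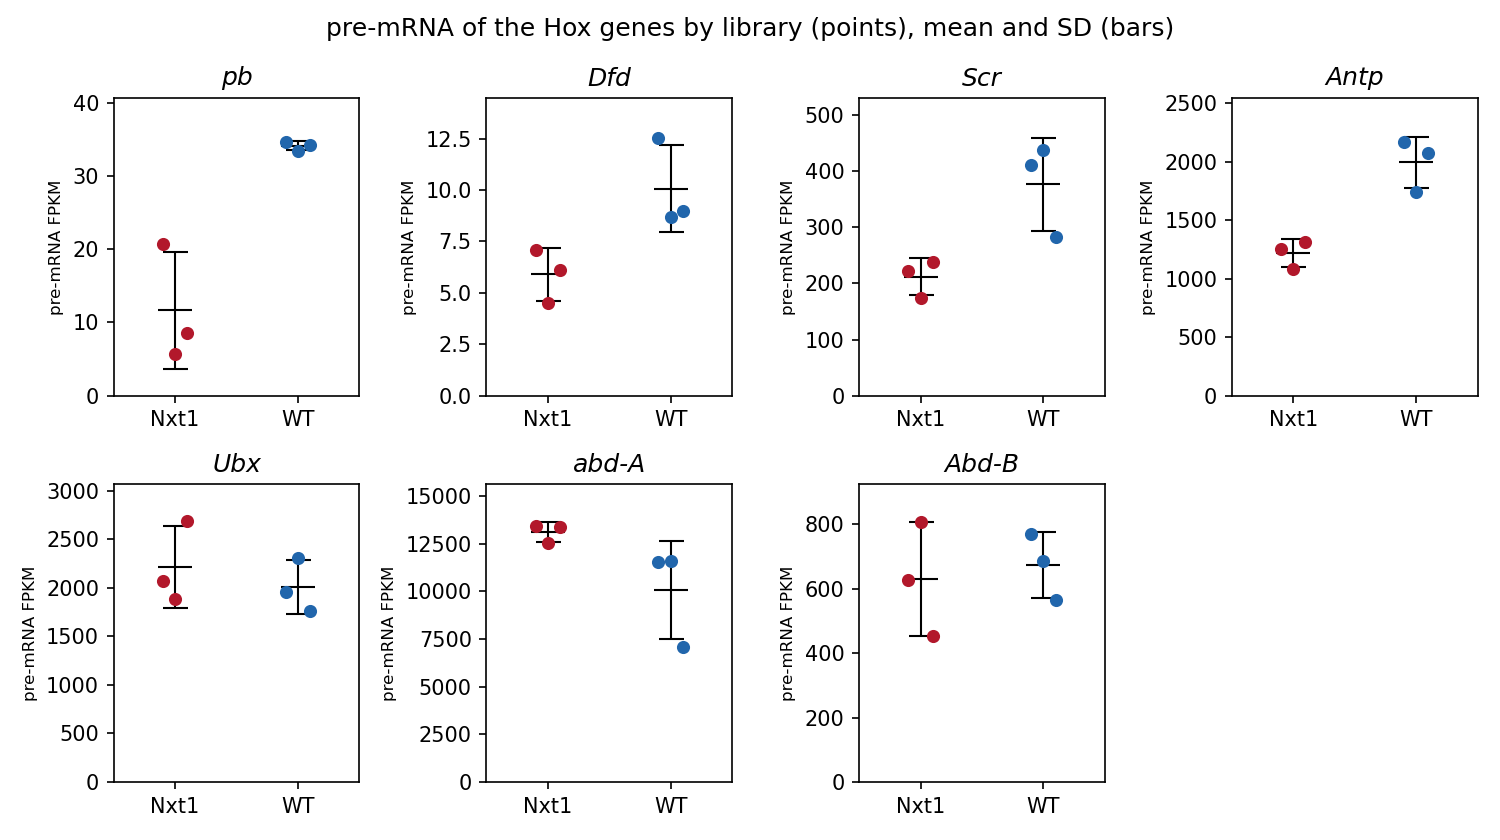
Pre-mRNA FPKM as deposited for the 7 Hox genes with finite values, with 1 point per library, the mean as a horizontal mark and the SD as a bar (n = 3 each), Nxt1 left of WT. The Nxt1 points of pb, Dfd, Scr and Antp lie below the WT points, those of abd-A lie above them, and those of Ubx and Abd-B overlap them.

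Set side by side on the log2 scale of FPKM + 1, the pre-mRNA and mRNA folds were -0.71 and -0.63 for Antp and -0.81 and -0.89 for Scr. On this scale they lay further apart for Dfd, at -0.69 and -0.35, and for pb, at -1.65 and -0.74. Mean mRNA of these genes was low (1.4 FPKM for Dfd and 0.61 for pb), where the 1 added weighs more. By edgeR on reads the pre-mRNA and mRNA folds were -0.84 and -0.65 for Dfd and -1.73 and -2.30 for pb. They were -0.74 and -0.70 for Antp and -0.86 and -1.11 for Scr, further apart for Scr than on FPKM + 1. With lengths put back in order those of Scr were -0.67 and -0.57. Which of the folds was larger thus depended on the scale for pb and for Scr. The ratio of mRNA to pre-mRNA within a library was tested for 6 Hox genes, and limma called 0 at adjusted p under 0.05, with 0 at an unadjusted p under 0.05, beside 16.6% of all genes at that unadjusted p. Over 3103 genes 0.29% were called (0.0967% with a lower and 0.193% with a higher ratio). By edgeR, with both kinds of RNA in 1 model, 0 of 7 Hox genes were called, beside 9.1% of 2505 genes (3.83% lower).

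Antp had 1.56, 1.54 and 1.48 mRNA reads per pre-mRNA read in Nxt1 libraries, against 1.43, 1.49 and 1.56 in WT libraries. The values were interleaved (log2 fold of the ratio 0.08, SE 0.09, limma adjusted p = 0.708). Scr had 0.821, 0.970 and 0.791 mRNA reads per pre-mRNA read in Nxt1 libraries and 1.02, 0.939 and 1.08 in WT libraries. The log2 fold of the Scr ratio on FPKM + 1 was -0.08 (SE 0.14, limma adjusted p = 0.814). It was -0.21 with a pseudocount of 0.1 (limma adjusted p = 0.51) and -0.17 by edgeR on reads (adjusted p = 0.614). For pb the ratio of reads was 0.400, 1.75 and 1.83 in Nxt1 libraries and 1.77, 1.596 and 1.66 in WT libraries. The low value comes from 6 mRNA and 15 pre-mRNA reads, and the direction of the fold depends on the scale. The log2 fold was -0.43 by edgeR on reads (adjusted p = 0.627) and 0.91 on FPKM + 1 (limma with no filter, adjusted p = 0.415), and neither was called. In abd-A the ratio of FPKM was lower in each Nxt1 library than in each WT library, at 87.7% of the WT mean by the ratio of means, or a log2 fold of -0.19 (SE 0.09, limma adjusted p = 0.346, exact permutation p = 0.1). In reads the abd-A groups overlapped. There were 6.13, 4.95 and 5.12 mRNA reads per pre-mRNA read in Nxt1 libraries and 6.43, 5.98 and 6.14 in WT libraries. How many of all genes separate in this ratio was not counted.

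**Figure D4:**
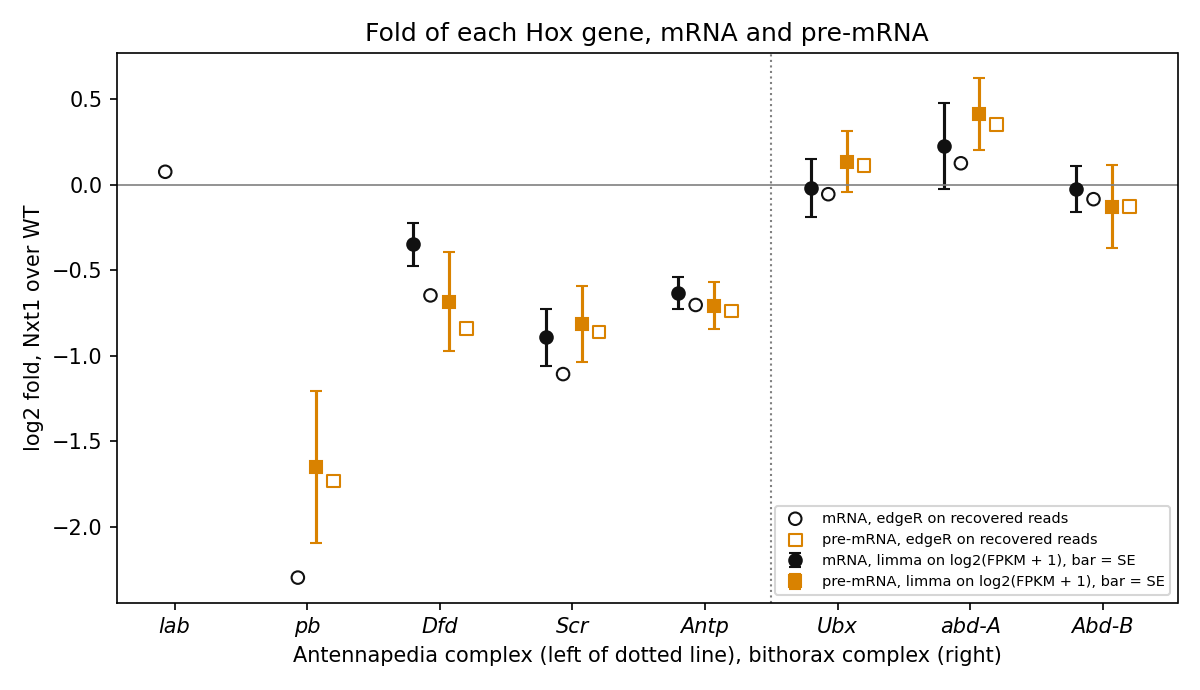
log2 fold of Nxt1 over WT for each Hox gene, in mRNA (black circles) and pre-mRNA (orange squares). Filled symbols are limma values with their SE and open symbols are edgeR values on recovered reads. From pb to Antp all symbols lie below 0, and those of Ubx, abd-A and Abd-B lie between -0.13 and 0.41. The genes lab and pb have no filled mRNA symbol since they were below the filter.

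Set per base, exonic over intronic reads compare spliced with unspliced RNA between genes. The ratio was 4.73 ± 0.526 for Scr in Nxt1 larvae and 5.57 ± 0.396 in WT larvae (SD, n = 3 each), the lowest of 5 Hox genes with both lengths. It was 11.6 ± 2.76 and 10.5 ± 2.38 for Dfd in Nxt1 and WT larvae. For Ubx it was 13.1 ± 0.464 in Nxt1 larvae and 14.7 ± 0.869 in WT larvae, and for abd-A it was 18.0 ± 2.13 in Nxt1 larvae and 20.6 ± 0.772 in WT larvae. Abd-B stood highest, at 39.2 ± 10.9 in Nxt1 larvae and 35.9 ± 3.17 in WT larvae. The median over 1921 genes with at least 100 reads of each kind was 26.5 in Nxt1 larvae and 27.2 in WT larvae. Exonic lengths of these 5 genes run from 2739 bases (Dfd) to 8184 (Abd-B) and intronic lengths from 7854 bases (Dfd) to 73522 (Ubx).

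**Figure D5:**
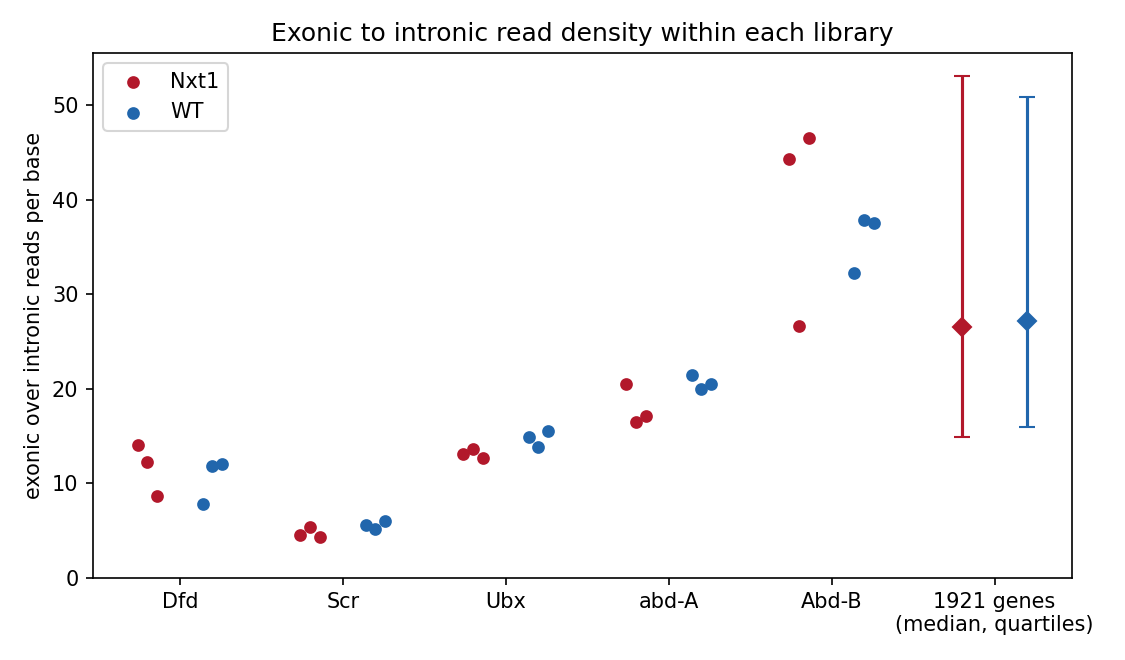
Reads per exonic base over reads per intronic base for the 5 Hox genes with both lengths, 1 point per library (Nxt1 red, WT blue), and the median with quartiles over 1921 genes at the right. Scr lies lowest, between 4.34 and 5.94, and Abd-B is the only one of the 5 with a mean above the median of all genes in both genotypes.

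No circular RNA of a Hox gene was listed. The deposited tables hold 467 circles from 366 host genes in Nxt1 larvae and 597 circles from 445 host genes in WT larvae, and 0 of either belong to the 8 Hox genes. Listed circles had as few as 2 back-splice reads over both libraries given. The sources used here do not give the rule for listing a circle, so a count of 0 was not turned into a limit.

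Other genes share the stretches of chromosome that hold the Hox genes. Between and up to 3 genes beyond lab and Antp the reference table places 45 other genes, of which 42 are in the tables and 9 were tested. Of these 9, limma called 0, beside 21.6% of all genes (Ama, which encodes a secreted immunoglobulin-domain protein, had a log2 fold of -0.37 and an adjusted p of 0.213). By edgeR agt and CG1307, which lie beyond lab, fell (log2 folds -1.08 and -0.28, adjusted p = 0.0288 and 0.0291). Of the 10484 genes that edgeR tested, 22.5% were called in either direction and 12% lower. The cuticle protein genes Ccp84Ag to Ccp84Aa, nested between lab and pb, had at most 38 reads in any library, and the homeobox genes zen, zen2, bcd and ftz of the early embryo at most 1.

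Noncoding RNAs with at least 10 reads in all in that stretch numbered 13. Of these limma tested 6 and edgeR 8, each calling 0, beside 21.6% of all genes tested by limma and 22.5% by edgeR. A further 3 (lncRNA:CR45902, lncRNA:CR45903 and lncRNA:CR45899) were tested by neither. The 13 were lncRNA:CR33938, lncRNA:CR45593, lncRNA:CR44930, lncRNA:CR42651, lncRNA:CR45902, lncRNA:CR45903, lncRNA:CR45559, lncRNA:CR44932, lncRNA:CR43252, lncRNA:CR45899, lncRNA:CR44933 and the signal recognition particle RNAs 7SLRNA:CR42652 and 7SLRNA:CR32864. The last 2 are near-identical copies, and their counts are uncertain. Closest to the threshold was lncRNA:CR45559, with 15, 20 and 27 reads in Nxt1 larvae and 44, 65 and 48 in WT larvae (edgeR log2 fold -0.87, adjusted p = 0.0505).

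Between and up to 3 genes beyond Ubx and Abd-B the reference table places 19 other genes. Of the 6 tested 1 rose, beside 12.5% of all genes. It was lncRNA:CR45750, which lies between Ubx and abd-A. It had 65, 143 and 128 reads in Nxt1 larvae, against 43, 55 and 64 in WT larvae. Every Nxt1 library was above every WT library, although in reads Nxt1 replicate 1, the shallowest library, exceeded WT replicate 3 by a single read. The fold on FPKM + 1 was 1.64 (limma adjusted p = 0.0107; edgeR log2 fold 1.49, adjusted p = 0.00689). Next to it lncRNA:TS16 had 2, 4 and 3 reads in Nxt1 larvae and 12, 16 and 17 in WT larvae. It fell by edgeR (log2 fold -1.82, adjusted p = 0.0199), beside 12% of all genes called lower by edgeR. The regulatory noncoding RNA lncRNA:bxd, upstream of Ubx, had 11, 47 and 13 reads in Nxt1 larvae and 7, 7 and 15 in WT larvae (edgeR log2 fold 1.70, adjusted p = 0.0908), with Nxt1 replicate 2 alone well above the rest.

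The long transcripts lncRNA:iab8 and lncRNA:iab4 between abd-A and Abd-B were not called (limma log2 folds -0.27 and 0.21, adjusted p = 0.34 and 0.367). lncRNA:CR44945, lncRNA:CR43617 and lncRNA:CR46267 had at most 9 reads in any library and were tested by neither tool. Beyond Abd-B, Actn3, a gene of the alpha-actinin family, rose by edgeR with 24, 43 and 56 reads in Nxt1 larvae and 3, 10 and 1 in WT larvae (log2 fold 3.54, adjusted p = 0.0107). This stands beside 22.5% of all genes called in either direction by edgeR. The sources used here do not say whether reads were counted by strand. Values of noncoding RNAs that overlap Hox genes therefore cannot be told apart from those of the Hox transcripts.

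The genes listed as Hox cofactors and axial partner factors did not move with Scr and Antp past the threshold. Of 9 tested genes for cofactors and axial partner factors, among them exd and hth, 0 rose and 0 fell, with a median log2 fold of -0.16. Over all genes tested 12.5% rose and 9.1% fell, with a median of 0.01, and the counts of the lists that follow are to be read beside these shares. Polycomb proteins keep Hox genes silent and trithorax proteins keep them active. Of 26 tested Polycomb group genes 1 rose and 1 fell, with a median of -0.09. Su(z)2 rose 1.20-fold (limma adjusted p = 0.0339) and esc, a subunit of the histone methyltransferase complex, fell to 0.744 of WT (adjusted p = 0.0330). Among 31 trithorax group genes 1 rose and 1 fell, with a median of -0.01. The chromatin remodelling ATPase gene brm had 220 ± 18.7 FPKM in Nxt1 larvae and 153 ± 11.2 FPKM in WT larvae (SD, n = 3 each), and rose 1.43-fold (limma adjusted p = 0.0173). The gene wds, which encodes a subunit of histone methyltransferase complexes, fell to 0.797 of WT (adjusted p = 0.0331).

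Factors of chromatin boundaries, which separate the regulatory domains of the bithorax complex, fell in 2 of 9 tested genes and rose in 0, with a median log2 fold of -0.25, beside 9.1% that fell and 12.5% that rose of all genes. The insulator protein gene su(Hw) fell to 0.733 of WT (limma adjusted p = 0.00663), with 20.2 ± 0.251 FPKM in Nxt1 larvae and 27.9 ± 0.813 FPKM in WT larvae (SD, n = 3 each). Cp190 fell to 0.842 of WT (adjusted p = 0.0311). Among 16 tested genes described as Hox targets 2 rose and 1 fell, with a median of -0.08. The transcription factor gene fkh, which Scr switches on in the embryonic salivary gland, rose 1.39-fold (limma adjusted p = 0.0132), bs rose 1.23-fold (adjusted p = 0.0345) and the ligand gene upd1 fell to 0.487 of WT (adjusted p = 0.00949).

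In the list of other homeobox genes 41 were tested, of which 7 fell and 1 rose, with a median log2 fold of -0.11. The 1 that rose, eya (1.397-fold, limma adjusted p = 0.0113), encodes a phosphatase and coactivator without a homeodomain. The share that fell compares with 9.1% of all genes. The muscle identity gene slou had 5.14 ± 2.01 FPKM in Nxt1 larvae and 10.7 ± 2.69 FPKM in WT larvae (SD, n = 3 each) and fell to 0.514 of WT (limma adjusted p = 0.0484). The other 3 named by the rule were ap (0.680 of WT, adjusted p = 0.0194), the glial gene repo (0.684, adjusted p = 0.0191) and otp (0.702, adjusted p = 0.0359). With equal totals 0 genes were higher in any of these lists, and 8 cofactor, 19 Polycomb, 22 trithorax, 8 boundary, 10 target and 23 other homeobox genes were lower, as were 49% of all genes, so that the rises of Su(z)2, brm, fkh, bs and eya were not called on that scale.

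Hox genes are strongly expressed in the ventral nerve cord and in imaginal cells, so markers of these are set beside them. Of 10 tested neuron and glia markers 3 fell (Appl to 0.592, repo to 0.684 and nSyb to 0.754 of WT) and 0 rose, with a median log2 fold of -0.31, beside 9.1% that fell and 12.5% that rose of all genes. Their summed level was 118 to 138 scaled RPM in Nxt1 larvae and 156 to 173 in WT larvae, with none of the 13 at 0. For 14 imaginal cell markers the summed level was 217 to 250 in Nxt1 larvae and 228 to 277 in WT larvae. The groups overlapped, and of 12 tested 1 fell (ap) and 0 rose. The 5 neuroblast markers summed to 13.8 to 14.7 in Nxt1 larvae and 14.5 to 20.5 in WT larvae, with 0 of 2 tested called. With equal totals 10 of 10 neuron and glia markers, 8 of 12 imaginal and 1 of 2 neuroblast markers were called lower, beside 49% of all genes. The part of these cells in the values of pb, Scr and Antp was not tested.

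Markers of other tissues moved as well. Of 12 muscle markers 6 rose and 0 fell, of 13 epidermis markers 4 rose and 0 fell, and of 6 tested salivary gland markers 5 rose and 0 fell, beside 12.5% that rose and 9.1% that fell of all genes. Of 7 fat body markers 4 rose and 0 fell, of 8 hemocyte markers 2 rose and 1 fell, and 0 were called of 3 tendon, 4 midgut and 4 trachea markers. With equal totals 3 muscle, 3 epidermis, 5 salivary gland, 3 fat body and 2 hemocyte markers were called higher, beside 5.92% of all genes. On that scale 1 epidermis, 2 hemocyte, 1 tendon and 3 trachea markers were called lower, beside 49%. Their part in the Hox values was not tested either.

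The genes whose mRNA followed that of Scr most closely over the 6 libraries were the phosphatase gene Mkp3 (Pearson's r = 0.996) and the netrin gene NetA (r = 0.994). For Antp they were AstC-R2, a receptor gene for the neuropeptide allatostatin C (r = 0.994), and the odorant-binding protein gene Obp56c (r = 0.988). All 4 were lower in Nxt1 larvae, with log2 folds of -0.78, -1.21, -0.65 and -1.54. The 6 points share libraries and the genotype difference, and 440 genes had an r above 0.9 with Scr and 554 with Antp.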

How the data were processed

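The authors deposited FPKM of mRNA and of pre-mRNA in a table each, with 17492 genes. The submitters' processing notes list DESeq2, featureCounts 1.6.2, STAR 2.5.3a, Subread and Trimmomatic 0.36 without their roles. The sources used here name no genome build. For circular RNA the authors deposited raw counts of back-splice reads. A scaled score (BPM), also deposited, is not used here.

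Within a gene the FPKM divide into whole-number ratios, so reads were recovered (tolerance 0.01), in every gene that had reads and finite values, 15293 for mRNA and 4543 for pre-mRNA. In 294 and 88 of these genes the reads had a shared factor, found from the whole number that a length must be. The lengths so implied are out of order. Spearman's rho with the gene's own span in RefSeq (Release 6) was 0.028 for mRNA, and 0.933 once the length in a row was given to the gene of that rank among the sorted IDs. Intronic length is the reordered length of the pre-mRNA table or, where that was not recovered, the span minus the exonic length. The 2 were equal in 2944 of 4495 genes with both. For pb and Antp no exonic length was recovered. No coordinates are printed, and no reference sequences were used here. Gene symbols matched 17371 of 17492 IDs.

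The test was limma 3.58.1 (R 4.3.3) on log2(FPKM + 1), with genotype alone in the design and a trended eBayes prior, for genes whose mean reached 1 FPKM. P-values were adjusted over all of these by Benjamini-Hochberg. For the ratio, log2 pre-mRNA was subtracted from log2 mRNA within a library. Counts recovered from the FPKM went into edgeR 4.0.16 (quasi-likelihood, TMM scaling) and DESeq2 1.42.0 as alternatives. The scripts were tested on simulated data. Scaled reads are reads divided by the library factor in the FPKM. Members and lists were chosen with earlier results of these data known. Named genes follow a rule: all Hox genes, up to 4 called members of a list by size of fold, called neighbours and noncoding neighbours with at least 10 reads, and the 2 most alike genes per called Hox gene. Neighbours called by edgeR alone, those closest to a threshold, Ama, exd, hth, eya and the gene groups counted by their highest reads were named after their values were seen.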

Additional observations from a re-analysis of the deposited data

How the results depend on the processing

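Without 1 library at a time the number of genes called was 767 to 2696 for mRNA, 6 to 128 for pre-mRNA and 3 to 24 for the ratio, against 1929, 53 and 9. Replicates of a number did not deviate together (r = -0.081, -0.123 and -0.286 for numbers 1, 2 and 3), nor did each correlate best with its own number, so the number was not taken as a pairing. With the replicate block the counts were 585, 0 and 1, and equal totals gave 4897 for mRNA and 105 for the ratio. Pre-mRNA counts were 27 with lengths put back in order, 208 and 320 by edgeR with and without a filter and 238 by DESeq2. Without a filter edgeR, and DESeq2 likewise, started from the 4543 genes with recovered pre-mRNA reads. Ratio counts were 22 with a pseudocount of 0.1, 30 with no filter, 2 with a mean of at least 5 FPKM, 2 with lengths in order, 17 with quantile normalization, 15 without trend and 228 by edgeR.

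For pb mRNA the log2 fold, not tested in the limma design, was called at -0.74 with no filter, -2.30 and -2.26 by edgeR with and without a filter and -2.26 by DESeq2. From the 15293 genes with recovered mRNA reads, limma with no filter called 1790, edgeR without a filter 2008 and DESeq2 2684. Scr mRNA stayed at -0.89 under the replicate block but was no longer called. With equal totals Dfd mRNA (-0.56) and Abd-B mRNA (-0.39) were called and abd-A mRNA was at -0.15. Pre-mRNA calls by edgeR with a filter, edgeR without one and DESeq2 were at -1.73, -1.75 and -1.67 for pb, -0.86, -0.88 and -0.84 for Scr and -0.74, -0.75 and -0.71 for Antp. The ratio of pb was 0.91 on FPKM + 1 and -0.43 by edgeR. That of Scr was -0.08 on FPKM + 1, -0.21 with a pseudocount of 0.1, -0.17 by edgeR and 0.10 with lengths in order. Those of Antp and Abd-B were -0.16 and -0.14 with equal totals. The cause of these changes was not tested.

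Leaving out libraries gave mRNA log2 folds of -0.47 to -0.28 for Dfd, -1.08 to -0.80 for Scr, -0.70 to -0.58 for Antp, -0.17 to 0.0944 for Ubx, -0.07 to 0.39 for abd-A and -0.17 to 0.0639 for Abd-B. In pre-mRNA they ran from -2.13 to -1.29 for pb, -1.01 to -0.68 for Scr, -0.80 to -0.63 for Antp, -0.0149 to 0.24 for Ubx and -0.33 to 0.0876 for Abd-B. The ratio of Scr ran from -0.21 to 0.0154 and that of Abd-B from -0.0777 to 0.31. Dfd, pb and Antp, with lengths in order, fell below the filter or had no length and could not be fitted in mRNA. At under 50 reads a library, lab, Dfd and pb in Nxt1 larvae are limited by depth. With equal totals the number of called genes changed by over 1.5 times in 12 of the gene lists.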
